A study of Mus musculus with 6 samples.

Results

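The genes described here were 10 genes of the insulin-like growth factor (IGF) axis: the ligand Igf1, its receptor Igf1r, the binding proteins Igfbp2, Igfbp3, Igfbp4, Igfbp5, Igfbp6 and Igfbp7, and the pappalysins Pappa and Pappa2. They were chosen by name, without the imprinted genes Igf2 and Igf2r, and each was represented by its RefSeq transcript with the highest mean among 16 transcripts. They were 10 of the 25043 genes that could be matched to the deposited table of 42361 transcripts, and 9 of them were among the 16697 autosomal genes with an adjusted p-value. RNA-Seq was compared between primary mouse embryonic fibroblasts (MEFs) from wild type (WT) embryos (n = 3 libraries) and MEFs from embryos without ANP32E, a chaperone of the histone variant H2A.Z (Anp32e null, Anp32e-/-, n = 3 libraries). All cells were grown in DMEM with 10% serum without further treatment, were below passage 8, and MEFs of both genotypes were given by another laboratory. The comparison asks which transcripts differ where ANP32E is absent. The methods call replicates of the cell culture work biological, but the sources used here do not tie the 3 libraries of a genotype to separate embryos, so each p-value measures the spread between these libraries.

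IGF1 is a secreted growth factor that signals through the receptor tyrosine kinase IGF1R to the PI3K-AKT and MAPK pathways. In the extracellular space most IGF is held by IGF binding proteins, which lengthen its life and limit its access to the receptor, and the pappalysins are metalloproteases that cut some of these binding proteins and so release the ligand. In fibroblasts the axis works locally, since the same culture can make the ligand, the receptor, the binding proteins and the proteases.

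In Anp32e null MEFs 4 of the genes were higher and 3 were lower. The ligand Igf1 was 16.1-fold higher (95% interval 10.7 to 24.3) and Igfbp6 was 6.41-fold higher (5.12 to 8.03), followed by Igfbp5 (1.82-fold) and the protease gene Pappa (1.50-fold). Igfbp2 was 2.22-fold lower (1.91 to 2.58), Igfbp4 was 2.19-fold lower (1.85 to 2.60) and Igf1r was 1.35-fold lower (1.20 to 1.52). Igfbp3 and Igfbp7 did not pass the test, and Pappa2 had too few reads for one. A gene was called here when the adjusted p-value of DESeq2's Wald test (Benjamini-Hochberg) was under 0.05, and among all 16697 genes 16.8% were called higher and 14.2% lower. With the added requirement of an absolute log2 fold change (log2FC, Anp32e null over WT) over 0.5, 4 of the 9 genes with an adjusted p-value were called higher and 2 lower, while Igf1r dropped out. By that rule 8.63% of all genes were called higher and 8.2% lower. The median log2FC was 0.52 over the 9 genes and -0.00 over all genes, and the median absolute log2FC of all genes was 0.31.

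**Figure D1:**
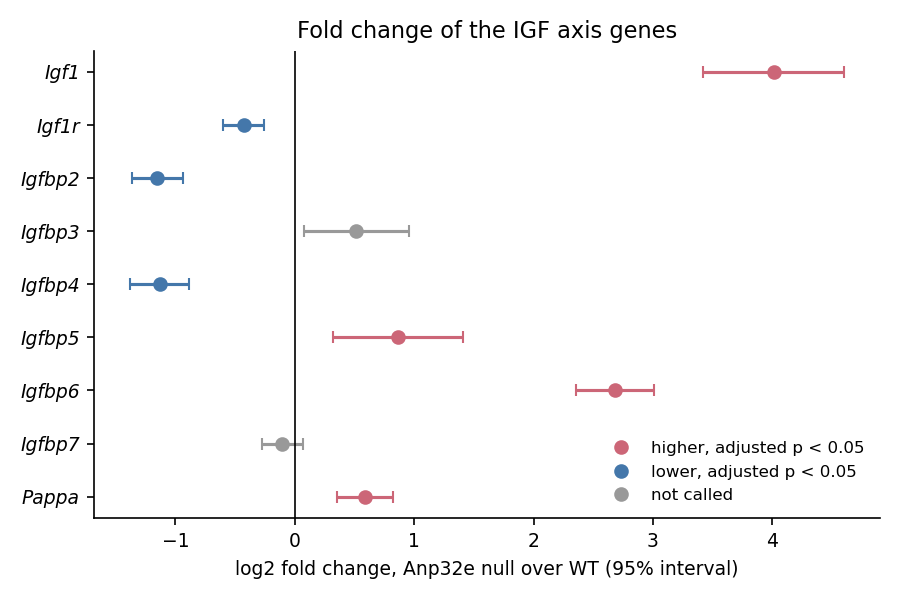
Log2 fold change of Anp32e null over WT for the 9 genes with an adjusted p-value; points are DESeq2 estimates from 3 libraries a genotype and bars their 95% intervals, coloured by call at an adjusted p under 0.05. Igf1 (4.01) and Igfbp6 (2.68) lie farthest to the right, Igfbp2 (-1.15) and Igfbp4 (-1.13) farthest to the left, and the interval of Igfbp7 crosses 0.

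The 250 bases before the start site of the genes with the largest rises (Igf1, Igfbp6) and the largest falls (Igfbp2, Igfbp4) are shown, since these are the genes on which the comparison turns. They are RefSeq sequences of GRCm38.p6, all on the plus strand, at chr10:87860861-87861110, chr15:102143936-102144185, chr1:72824230-72824479 and chr11:99040994-99041243. Capitals mark matches, on either strand, to GGGCGG (the GC box), CCAAT and TATAAA, none of which overlapped another.
Igf1: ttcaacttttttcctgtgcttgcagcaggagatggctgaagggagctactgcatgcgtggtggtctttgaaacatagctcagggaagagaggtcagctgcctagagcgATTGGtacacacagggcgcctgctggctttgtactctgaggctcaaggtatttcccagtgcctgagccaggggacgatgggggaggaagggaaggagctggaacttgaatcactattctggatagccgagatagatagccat
Igfbp6: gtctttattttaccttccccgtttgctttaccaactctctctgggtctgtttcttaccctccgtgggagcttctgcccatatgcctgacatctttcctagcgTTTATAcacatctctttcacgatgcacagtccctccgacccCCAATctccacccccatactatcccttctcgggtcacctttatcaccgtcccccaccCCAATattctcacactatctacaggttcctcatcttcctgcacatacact
Igfbp2: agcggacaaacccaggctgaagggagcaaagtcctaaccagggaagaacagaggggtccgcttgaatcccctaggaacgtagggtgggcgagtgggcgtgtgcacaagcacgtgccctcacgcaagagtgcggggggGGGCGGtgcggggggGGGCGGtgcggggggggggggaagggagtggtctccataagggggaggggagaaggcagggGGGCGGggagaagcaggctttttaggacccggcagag
Igfbp4: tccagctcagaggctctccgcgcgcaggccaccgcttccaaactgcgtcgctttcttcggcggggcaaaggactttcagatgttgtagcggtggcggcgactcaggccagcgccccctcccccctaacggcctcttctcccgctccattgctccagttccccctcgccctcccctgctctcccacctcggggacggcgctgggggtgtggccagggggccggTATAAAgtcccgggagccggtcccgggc

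The promoter of Igfbp2 held 3 GC boxes, at -113, -98 and -37 from the start, and that of Igfbp4 held a TATAAA at -28. The promoter of Igfbp6 held CCAAT at -107 and -50 and, on the opposite strand, TATAAA at -148, and that of Igf1 held CCAAT on the opposite strand at -142. The letters themselves are common. Among 32851 promoters of 300 bases in the same table, 35.7% held GGGCGG, 37.4% CCAAT and 13.6% TATAAA on either strand. Over the full 300 bases (250 before and 50 after the start), the promoters of the 2 most increased genes had 6 (Igf1) and 8 (Igfbp6) CpG sites, near the median of 7 over all promoters. Those of Igf1r (48), Igfbp3 (37), Igfbp7 (33), Igfbp4 (27) and Igfbp2 (18) had more, that of Igfbp5 had 10 and that of Pappa2 had 2. The start that RefSeq lists for Igf1 lay 1853 bases downstream of the start of the transcript model that represented the gene, and the start listed for Igfbp6 lay 176 bases upstream of its model. The table had promoters for 9 of the 10 genes. A match is a description of the letters in this window and not a binding site.

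Igf1 lies at chr10:87858265-87937047 (GRCm38, plus strand). The whole reads of each library could be worked out for 5 of the genes with a mean of at least 10, as described under the processing, so that the replicates could be seen. Libraries are called a, b and c within a genotype, which are not the replicate numbers of the labels. Igf1 had 15, 18 and 22 reads in the WT libraries and 348, 273 and 192 in the Anp32e null libraries. Divided by the size factor of each library (the normalized count), these were 13.3, 17.1 and 22.3 in WT and 339, 292 and 211 in Anp32e null. The lowest Anp32e null library was thus far above the highest WT library. In both genotypes the ligand gene stayed below 592 normalized counts, the median of the means of all genes. The means were 17.6 ± 4.53 and 281 ± 64.5 normalized counts (SD, n = 3), and the log2FC of 4.01 (SE 0.301, adjusted p = 2.75e-38) was above that of 99.0% of all genes. The 5 RefSeq transcripts of Igf1 gave log2FC values from 3.80 to 4.01, but their reads were largely the same ones and they do not count as separate evidence.

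**Figure D2:**
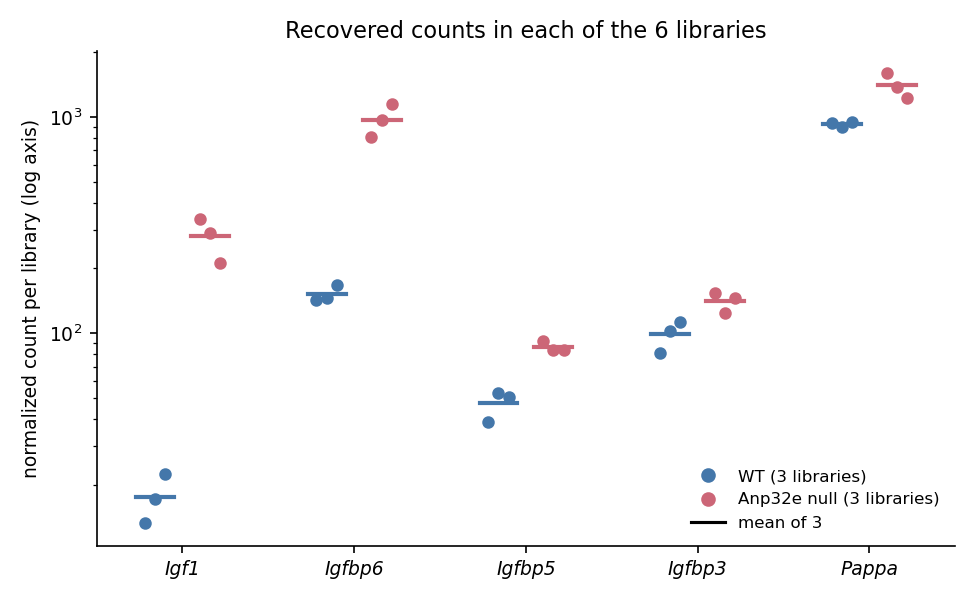
Normalized counts (reads divided by the size factor, log axis) of the 5 genes whose reads could be recovered in each library; points are libraries, lines the mean of the 3 libraries of a genotype. In all 5 genes every Anp32e null library lies above every WT library, with the widest gap for Igf1 (highest WT 22.3, lowest Anp32e null 211).

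Igf1r, the receptor, lies at chr7:67952257-68233668 (plus strand). Its WT mean was 7218 normalized counts and its Anp32e null mean 5363, with a log2FC of -0.43 (SE 0.0872, adjusted p = 8.47e-06). It moved opposite to its ligand and by much less. The recovery of reads per library was not attempted for Igf1r, Igfbp2, Igfbp4 and Igfbp7, whose means lay above the limit set for it. Their group means were therefore computed from the mean over all libraries and the log2FC, and the error is that of the log2FC.

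Among the binding proteins, Igfbp6 showed the largest rise. It encodes a binding protein that prefers IGF2 over IGF1 and lies at chr15:102144186-102149512 (plus strand). Its reads were 161, 153 and 165 in WT and 826, 902 and 1044 in Anp32e null, or 142, 146 and 167 against 804, 964 and 1149 normalized counts. The WT libraries lay close together, and the lowest Anp32e null library was far above them. The means were 152 ± 13.5 and 972 ± 172 (SD, n = 3), with a log2FC of 2.68 (SE 0.166, adjusted p = 1.50e-56).

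Igfbp5, whose product binds the extracellular matrix as well as IGF, lies at chr1:72858065-72874865 (minus strand). It was read at a low level, with 44, 56 and 50 reads in WT and 95, 78 and 76 in Anp32e null. The normalized counts were 38.9, 53.3 and 50.7 in WT and 92.5, 83.4 and 83.6 in Anp32e null. The groups did not overlap, and the log2FC was 0.86 (SE 0.276, adjusted p = 0.00759). Igfbp3, the main IGF carrier of serum, lies at chr11:7206086-7215498 (minus strand) and had 81.4, 103 and 112 normalized counts in WT and 153, 124 and 146 in Anp32e null. Its groups did not overlap either, but the difference did not pass the test (log2FC 0.52, SE 0.224, adjusted p = 0.0627), and the 95% interval of the fold ran from 1.05 to 1.94. The groups did not overlap in any of the 5 genes with recovered reads, all with Anp32e null higher. For comparison, of the 3573 genes with means from 50 to 600 whose reads were recovered, 25.1% had every Anp32e null library above every WT library and 29% had every one below, a range of means that holds 4 of the 5 genes but not Pappa.

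Igfbp2 and Igfbp4 were the decreased binding proteins. Igfbp2, which is abundant in embryonic tissue, lies at chr1:72824480-72852474 (plus strand) and had 7782 normalized counts on average in the WT libraries and 3508 in the Anp32e null libraries. Its log2FC was -1.15 (SE 0.111, adjusted p = 1.95e-23), and its other transcript gave -1.17. Igfbp4, whose product is cut by PAPPA, lies at chr11:99040005-99052655 (plus strand) and had means of 5652 and 2580, with a log2FC of -1.13 (SE 0.126, adjusted p = 1.11e-17). Both genes fell by a like factor, and the intervals of their folds largely overlapped. Igfbp7, a relative that binds IGF weakly, lies at chr5:77349240-77408045 (minus strand). Its means were 7242 and 6742, and the log2FC of -0.10 (SE 0.0873, adjusted p = 0.397) was within its error, with a fold between 0.827 and 1.05.

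Pappa, the gene of the protease that cuts IGFBP4 and IGFBP5, lies at chr4:65124174-65357509 (plus strand). It had 1064, 947 and 938 reads in WT and 1636, 1286 and 1116 in Anp32e null, or 941, 901 and 950 against 1593, 1375 and 1228 normalized counts. The WT libraries were nearly equal, the Anp32e null libraries were more spread, and the groups did not overlap. The means were 931 ± 26.4 and 1398 ± 184 (SD, n = 3), with a log2FC of 0.59 (SE 0.120, adjusted p = 8.99e-06). The reads of Pappa were the hardest of the 5 to recover, as 41576 sets of whole reads shared its mean and the next best of them missed the log2FC by 2.46e-06. Pappa2, the other pappalysin, at chr1:158711727-158960451 (minus strand), had 4 reads in 1 Anp32e null library and none in the other 5 libraries. This is the only set of whole reads that gives its mean, and it could not be matched to the log2FC, since a genotype without reads has no finite fit. A count of 0 allows up to 3 reads in a library, so no difference was detectable at this depth, and no fold is given.

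To compare the genes with each other, normalized counts were divided by transcript length. In WT the order per kb was Igfbp7 (6035), Igfbp2 (5954), Igfbp4 (1475), Igf1r (633), Igfbp6 (136), Pappa (84.4), Igfbp3 (40.8), Igf1 (10.4) and Igfbp5 (7.91). In Anp32e null it was Igfbp7 (5618), Igfbp2 (2684), Igfbp6 (874), Igfbp4 (673), Igf1r (470), Igf1 (168), Pappa (127), Igfbp3 (58.3) and Igfbp5 (14.4). Igfbp6 thus rose from the 5th to the 3rd place and Igf1 from the 8th to the 6th. Among the genes with values per library, Igfbp6 (128 to 150 per kb), Pappa (81.7 to 86.2) and Igfbp3 (33.6 to 46.5) were apart from each other in WT, while Igf1 (7.93 to 13.3) and Igfbp5 (6.48 to 8.87) overlapped. In Anp32e null Igf1 (126 to 202) and Pappa (111 to 144) overlapped. For the genes without values per library, neighbours in this order could not be set against their spread. The place of Igf1 depends on the transcript model, since the longest one, of 7.05 kb instead of 1.67 kb, gave 2.49 per kb in WT and 39.7 in Anp32e null. Summed over the 6 binding proteins, the level fell from 13649 to 9923 counts per kb, and within that sum Igfbp6 went from 0.999% to 8.81%, Igfbp2 from 43.6% to 27.0%, Igfbp4 from 10.8% to 6.79% and Igfbp7 from 44.2% to 56.6%.

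**Figure D3:**
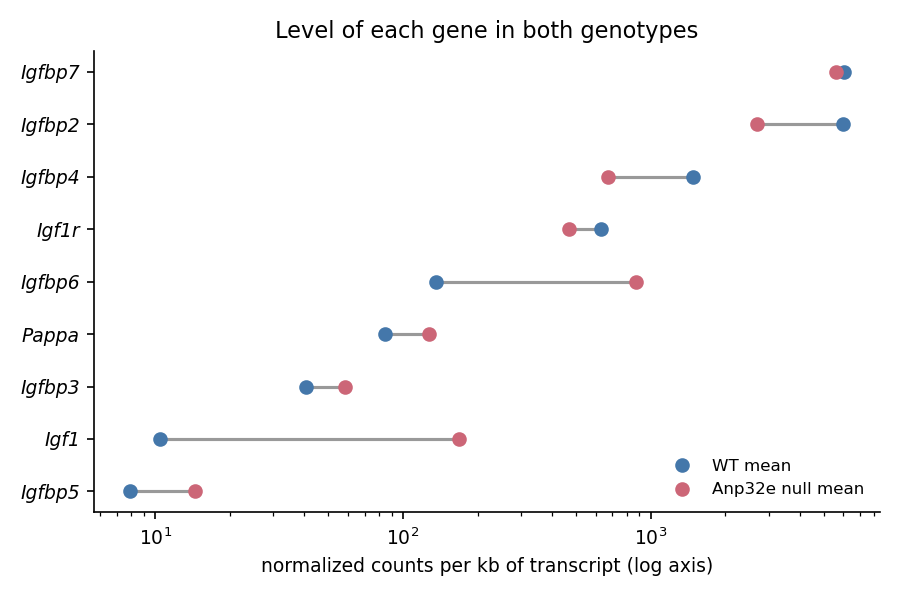
Normalized counts per kb of transcript (log axis) in WT and Anp32e null for the 9 genes with a mean of at least 10, ordered by the WT level; points are means over 3 libraries and have no error bar. Igfbp7 and Igfbp2 are highest in both genotypes, and Igf1 (10.4 to 168) and Igfbp6 (136 to 874) move the farthest.

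Several genes lie beside each other or in stretches that moved together. Neighbours count as tested here only if they averaged 10 or more counts over the libraries. Those below that level were left out, even where they had an adjusted p-value. The shares over all genes had no such limit. Igfbp2 and Igfbp5 point towards each other on chromosome 1 with 5.59 kb between their ends, yet Igfbp2 was lower and Igfbp5 higher. On the far side of Igfbp2, the nearest tested gene Rpl37a had a log2FC of -0.05 (adjusted p = 0.746). All 22 tested genes within 500 kb of Igfbp6 had a positive log2FC and 13 were called higher, beside 16.8% of all genes called higher. Their median log2FC was 0.45, beside 0.32 over the 703 genes of chromosome 15. The nearest neighbours of Igfbp6 were Spryd3 (0.50, adjusted p = 2.21e-04) and Csad (0.95, adjusted p = 1.66e-18). Krt18 (2.79) and Amhr2 (4.43), 2 genes picked after their values were seen, were higher by more than Igfbp6 itself. Of 18 tested genes around Igfbp4, 3 had a positive log2FC and 2 were called lower, beside 14.2% of all genes called lower. Their median log2FC was -0.21, near the -0.16 over the 1383 genes of chromosome 11. The neighbours Top2a (-0.37, adjusted p = 0.00469) and Tns4 (-0.78, adjusted p = 0.273) flanked Igfbp4. Of 6 around Igf1 none was called higher and 1 was called lower, which was Dram1 (-0.94), and the nearest, Tyms-ps, had 0.10 (adjusted p = 0.902). Around Igf1r, none of 7 was called, including its neighbours 4833412C05Rik (-0.65) and Pgpep1l (-1.09). The only neighbour of Pappa at 10 or more counts was Trim32 (-0.05), and the only one of Igfbp3 was Adcy1, which was called higher (1.54). Of 9 tested genes around Igfbp7, 5 had a positive log2FC and 3 were called lower, beside 14.2% of all genes. The 3 called lower were Paics (-0.30), Srp72 (-0.40) and Spink2 (-2.15). Igfbp1, which lies 3.54 kb from Igfbp3, had no reads.

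**Figure D4:**
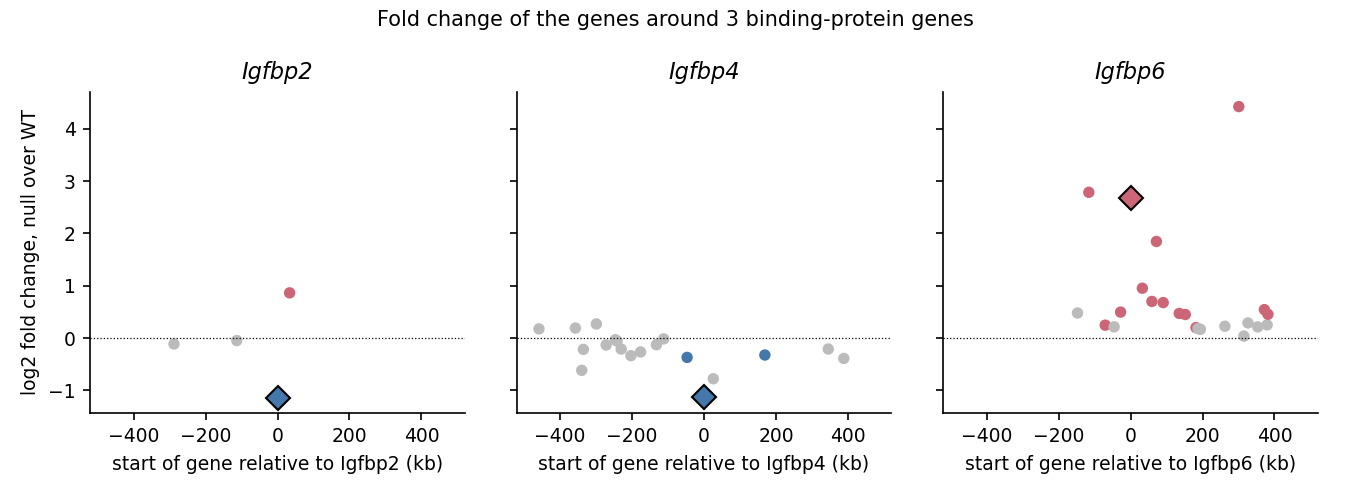
Log2 fold change of the tested genes within 500 kb of Igfbp2, Igfbp4 and Igfbp6 against the distance of their start from that gene's start in kb; circles are neighbours coloured by call (red higher, blue lower, grey not called) and diamonds the named gene. All 22 neighbours shown for Igfbp6 lie above 0, those of Igfbp4 lie near or below 0, and the red point beside Igfbp2 is Igfbp5. Neighbours that averaged under 10 counts are not shown.

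The rest of the pathway was read from 8 lists of 64 genes, of which 58 had an adjusted p-value. Of these, 11 were called higher and 7 lower, which is 6 and 4 with an absolute log2FC over 0.5, and the median log2FC was 0.04. These counts lie near the shares over all genes (16.8% and 14.2%, and 8.63% and 8.2% past 0.5), so they are no result about the lists. Igf2, the other ligand and an imprinted gene, moved opposite to Igf1: it had 1408, 1394 and 1271 reads in WT and 122, 30 and 59 in Anp32e null (log2FC -4.16, SE 0.503, adjusted p = 4.50e-15). Igf2r, which clears IGF2, was higher (0.64, adjusted p = 5.92e-09), while the insulin receptor gene Insr was not called (-0.13, adjusted p = 0.418). The stanniocalcins inhibit the pappalysins, and Stc2 was higher, with 172, 158 and 148 reads in WT and 266, 331 and 358 in Anp32e null (log2FC 1.15, adjusted p = 3.32e-08). Stc1 was not called (-0.08, adjusted p = 0.880). The libraries of the 2 genotypes did not overlap for Igf2 or Stc2. Pappa and its inhibitor gene Stc2 were therefore both higher. Of 4 other tested genes of proteases that cut binding proteins, Htra1 was the one called, and it was 2.79-fold higher (log2FC 1.48, adjusted p = 3.53e-58).

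Downstream of the receptor, changes were small. Of 17 genes of the PI3K-AKT-mTOR list none was called with an absolute log2FC over 0.5. Of 9 adaptor genes, 3 were called higher (Irs2, Gab1, Sos1) and 2 lower (Grb10, Grb14), and Grb14, which restrains insulin receptor signalling, was alone past 0.5 (-1.14, adjusted p = 1.17e-28). Of 14 FoxO genes and targets, which AKT signalling represses, none was called higher, 5 of the 13 with a mean of at least 10 had a positive log2FC, and Ccng2 (-0.71, adjusted p = 9.72e-06) and Sesn3 (-0.52, adjusted p = 0.00146) were called lower, which is near the 14.2% of all genes called lower. Growth hormone induces Igf1 in many tissues through JAK2 and STAT5. Of the 6 genes of that arm, 3 were called higher and 1 lower, beside 16.8% and 14.2% of all genes. The receptor gene Ghr (0.61, adjusted p = 1.72e-06), Jak2 (0.59, adjusted p = 8.33e-04) and the feedback gene Socs2 were higher. Stat5a was lower (-0.28, adjusted p = 0.0463), and Stat5b was not called (-0.20, adjusted p = 0.0781). Whether this arm had a part in the rise of Igf1 was not tested. Socs2 had 169, 184 and 164 reads in WT and 814, 579 and 570 in Anp32e null (log2FC 2.06, adjusted p = 1.78e-36), and its groups did not overlap. Cish, another gene of that feedback, had 100, 81 and 92 reads against 53, 97 and 69, and its groups overlapped (adjusted p = 0.725).

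**Figure D5:**
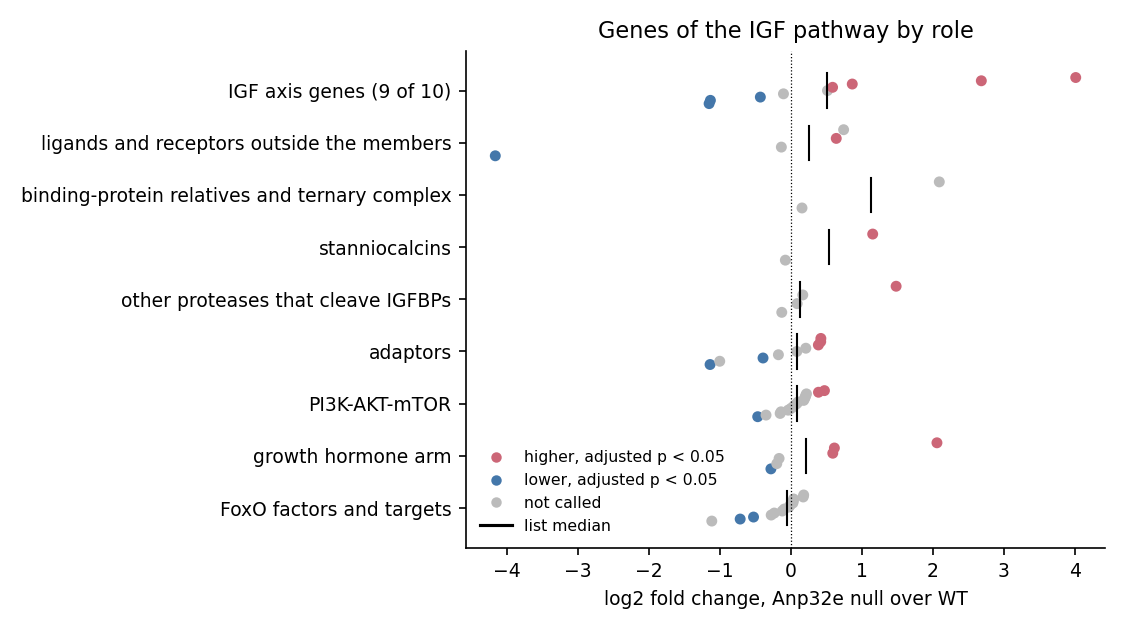
Log2 fold change of every gene with an adjusted p-value in the IGF axis and in the 8 pathway lists; each point is a gene coloured by call at an adjusted p under 0.05 and each black line the median of its list. The median is 0.52 for the IGF axis genes and between -0.06 and 0.09 for the adaptor, PI3K-AKT-mTOR and FoxO lists. In the other lists it runs from 0.13 (other proteases) to 1.12 (binding-protein relatives), with 0.54 for the stanniocalcins. The last 2 hold only 2 genes each with an adjusted p-value. The IGF axis genes spread from -1.15 to 4.01. A wide spread is not particular to them, as the ligands and receptors outside them spread from -4.16 (Igf2) to 0.74.

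Some facts of the whole series stand beside these results. Anp32e was 2.91-fold lower in Anp32e null MEFs (3259 against 1121 normalized counts). The authors report from RNA-Seq signal at the locus that the coding sequence of Anp32e is deleted in these MEFs. Where in the transcript the remaining reads lie was not examined here. Xist was at least 1704-fold higher in WT, and Ddx3y, Kdm5d, Eif2s3y and Uty were at least 221-fold higher in Anp32e null, so that sex and genotype cannot be told apart. Between libraries, the median absolute log2 difference over the 3573 genes was 0.152 to 0.165 within WT, 0.199 to 0.299 within Anp32e null and 0.386 to 0.492 between genotypes, and size factors ran from 0.909 to 1.13. Of 8 fibroblast markers, all with means of 628 normalized counts (Pdgfra) or more, 5 were higher in Anp32e null and 1 (Pdgfra) was lower. Only 2 of them were higher by a log2FC over 0.5, Col1a2 (1.16) and Col3a1 (1.65), and Vim and Prrx1 were not called. Over all genes 16.8% were called higher, and 8.63% with a log2FC over 0.5. Of 7 mesothelial markers 5 were higher in Anp32e null and 1 (Krt19) was lower. Their summed level was 9422 normalized counts in WT and 10009 in Anp32e null, most of it from Krt19 (9129 and 5671), and the sum of the other 5 with reads was 293 in WT and 4337 in Anp32e null. Wt1 was below the 3-count floor in WT and at 600 normalized counts in Anp32e null. Upk3b (5.05 to 1205) and Upk1b (3.47 to 1835) moved the same way, as did Krt18 and Cdh1 among 5 epithelial markers (summed 312 to 2099). Epcam, Krt8 and Krt5 were not called. Whether cells of these types were present, and whether they had a part in the rise of Igf1 and Igfbp6, was not tested. Of 5 macrophage markers, Adgre1, Ptprc and Lyz2 had means of 0.178 to 3.09, Csf1r was higher in Anp32e null (26.0 against 54.1, adjusted p = 0.00935) and Cd68 was lower (311 against 203, adjusted p = 2.48e-04). Of 4 endothelial markers, only Tie1 was called (higher, with a mean of 2.78 normalized counts), and Kdr, with a mean of 2958, was not. Of 4 chondrocyte markers 3 were called, in both directions: Acan (log2FC -3.62) and Col2a1 (-0.51) were lower and Sox9 (0.52) was higher. None of the skeletal muscle or neural crest markers was called. In bulk RNA, fewer cells of a type and less RNA per cell cannot be told apart.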

How the data were processed

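RNA was sequenced from 3 WT and 3 Anp32e null MEF libraries (stranded total RNA). The authors aligned reads to mm10 with STAR, used featureCounts for counting per RefSeq transcript and compared the genotypes with DESeq2 at default settings. The 1 deposited table holds only that comparison, so the fold changes and calls given here are those of the authors' DESeq2 run. Its signal is the authors' mean over 6 libraries of counts divided by size factors. Its log2 fold changes and standard errors were deposited unshrunken, and the score deposited with them is the Wald statistic. The p-values are those the authors obtained from Wald tests, adjusted by Benjamini-Hochberg with filtering on the mean.

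The design had assumed no values per library. Means of transcripts with a single read gave the 6 size factors, and the sign of the deposited fold change gave their genotype. Whole reads per library were those sets that gave the mean to its 15 digits and, refitted, the log2FC within 1e-06. The recovery was tested on simulated data. In the deposited table, 98.9% of 3611 genes with means of 50 to 600 gave a single set. Totals per library are not given in the sources used here, so no depth per library can be stated, and intervals cover the model's error only. GENCODE models gave lengths, and 158 transcripts had no gene. The genes and lists were chosen with earlier results of these data known. Named genes were the 10 genes, pathway genes called past 0.5 in log2FC, Igf2, Igf2r, Insr, Igfbp1, Stc1, Stc2, the nearest tested neighbours, and check and marker genes. Values of some genes of the pathway lists are not reported here. Alternatives changed the centring, the set adjusted over, the transcript and the null hypothesis. Python 3.11.15, numpy 2.4.6, pandas 2.3.3, scipy 1.17.1, sympy 1.14.0 and matplotlib 3.10.9 were used.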

Additional observations from a re-analysis of the deposited data

How the results depend on the processing

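Of the 49 log2FC values of single genes under other processing choices, 48 kept their direction and their side of the threshold. The exception was Igfbp3, which passed when chromosome medians were taken out (log2FC 0.68, adjusted p = 0.0136), so that 5 genes instead of 4 were called higher. Choices that changed only the set adjusted over left every log2FC as it was, so its direction could not change there. The median of all genes was -0.003, so taking it out moved each value very little. The count of 48 is therefore in large part fixed by these choices. When the test asked for an absolute log2FC above 0.5, the count of genes called higher fell from 4 to 2 (Igf1 and Igfbp6), as Igfbp5 (0.86, SE 0.276) and Pappa (0.59, SE 0.120) had 95% intervals that include that limit, and the count called lower stayed at 2 (Igfbp2 and Igfbp4). Taking out chromosome medians moved Igfbp6 to a log2FC of 2.36 and Igfbp4 to -0.97. Leaving out each recovered library in turn, a description with no test, gave log2 ratios of means from 3.83 to 4.21 for Igf1, 2.54 to 2.80 for Igfbp6, 0.74 to 0.95 for Igfbp5, 0.39 to 0.62 for Igfbp3 and 0.48 to 0.67 for Pappa. The recovery of reads was chosen after the data were seen. No paired analysis was possible because the recovered libraries carry no replicate number and no model was fitted to libraries. Libraries of Igf1r, Igfbp2, Igfbp4 and Igfbp7 were not left out, as the recovery of their reads was not attempted.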
